A study of Mus musculus with 12 samples.

Results

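The ISG15 system and its companions among the interferon-induced PARP and TRIM proteins were followed in cultures of MC38, a line derived from a mouse colon carcinoma. The set was given as 10 gene names: Isg15, Usp18, Ube2l6, Herc6, Parp9, Parp12, Parp14, Dtx3l, Trim21 and Trim25. Measured values played no part in the rule, but the set was drawn up with results of these arrays known. Of 18193 genes with a probe set assigned to a single gene, 9 belonged to the set. Isg15 had no such probe set, and its only probe set was also assigned to the pseudogene Gm9706, so it is described separately. Each gene was represented by the probe set with the highest mean over all 12 arrays.

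MC38 cells were grown as a monolayer and given the MEK inhibitor GDC-0623 at 100 nM, or the solvent DMSO, 1 day after seeding. RNA was taken after 24 h or 72 h. This gave 3 arrays in each of 4 groups, named 24h GDC-0623 and 72h GDC-0623 for treated cells and 24h DMSO and 72h DMSO for their solvent controls. The labels describe the 3 samples of a group as biological replicates, and all groups come from the same line, without other cell types added. MEK activates the kinase ERK, and Egr1, an immediate early gene driven by ERK, was lower under GDC-0623 by a log2 fold change of -4.90 ± 0.12 at 24 h and -5.57 ± 0.43 at 72 h (limma, standard error, adjusted p = 1.32e-07 and 5.70e-05). Egr1 fell most among 10 genes chosen as reporters of ERK output. Of these, 9 were called lower at each time, against 8.23% of all genes at 24 h and 12.4% at 72 h. The median log2 fold changes of the 10 reporters were -1.095 at 24 h and -1.14 at 72 h.

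ISG15 is a small ubiquitin-like protein that cells make in large amounts after exposure to type I interferon. It is coupled to other proteins by the activating enzyme UBA7, the conjugating enzyme UBE2L6 and, in mice, the ligase HERC6, and it is taken off again by the protease USP18. USP18 also binds the interferon receptor and dampens its signalling. Transcription of these genes is driven by ISGF3, a complex that includes STAT2 and IRF9 and binds the interferon-stimulated response element (ISRE) in promoters. PARP9, PARP12 and PARP14 belong to the ADP-ribosyltransferase family, and DTX3L is a ubiquitin ligase that forms a complex with PARP9. TRIM21 and TRIM25 are ubiquitin ligases. TRIM21 recognises antibody-coated virus inside cells, and TRIM25 acts with the RNA sensor RIG-I and the antiviral protein ZAP, the product of Zc3hav1.

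Promoter windows were available for 7 of the 10 genes, each running from 250 bases before to 50 bases after the annotated start (RefSeq, GRCm38.p6). Windows were not available for Usp18, Parp9 and Parp14. The ISRE core, searched as GAAANNGAAA on both strands, was present in 2 of these 7 windows, those of Isg15 and Trim21, against 3.99% of 27025 genes. The gamma-activated site, searched as TTCNNNGAA, was present in 0 of 7 windows, against 9.55% of genes. Shown first are the 250 bases before the start of Isg15, on the minus strand at chr4:156200819-156201068, with 3 overlapping matches in capitals from position -78 to position -57 relative to the start. The Trim21 stretch, on the minus strand at chr7:102565447-102565476, holds 2 overlapping matches in capitals from position 14 to position 29, counted from 1 at the start. The 250 bases before Trim25, on the plus strand at chr11:88999153-88999402, are given because Trim25 departed from the other genes at 24 h, and they hold no match. A match is a description of the letters and not evidence of a bound factor.
Isg15: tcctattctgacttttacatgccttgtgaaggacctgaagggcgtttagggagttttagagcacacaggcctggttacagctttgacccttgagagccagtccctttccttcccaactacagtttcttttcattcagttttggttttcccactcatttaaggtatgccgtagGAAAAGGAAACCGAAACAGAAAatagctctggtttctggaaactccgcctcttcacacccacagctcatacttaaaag
Trim21: ctgagagGAAACTGAAAGTGAAAtttggac
Trim25: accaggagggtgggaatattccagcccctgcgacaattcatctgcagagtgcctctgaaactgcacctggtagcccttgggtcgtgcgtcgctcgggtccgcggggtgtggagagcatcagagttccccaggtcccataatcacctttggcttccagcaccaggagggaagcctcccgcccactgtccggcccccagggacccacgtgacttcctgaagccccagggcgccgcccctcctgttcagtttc

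GDC-0623 raised nearly the whole set at 24 h and all measured members at 72 h, and the 72 h effect was the larger one for each of them. A gene was called when its adjusted p was below 0.05 (limma, Benjamini-Hochberg over 45037 probe sets). At 24 h, 8 of the 9 measured members were called higher, Trim25 being the exception, while 13.3% of all 18193 genes were called higher. At 72 h, 9 of 9 were called higher, against 13.8% of all genes. All treated arrays lay above all DMSO arrays for 8 members at 24 h and 9 at 72 h, against 21.2% and 21.3% of all genes. The median log2 fold change of the members was 1.08 at 24 h and 1.98 at 72 h, and the median over all genes was -0.03 at both times. In RNA from a whole culture, a change in every cell and a change in the share of cells that express a gene cannot be told apart. The drug comparisons, their difference and the time comparisons below share arrays, so they are not independent of one another.

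**Figure D1:**
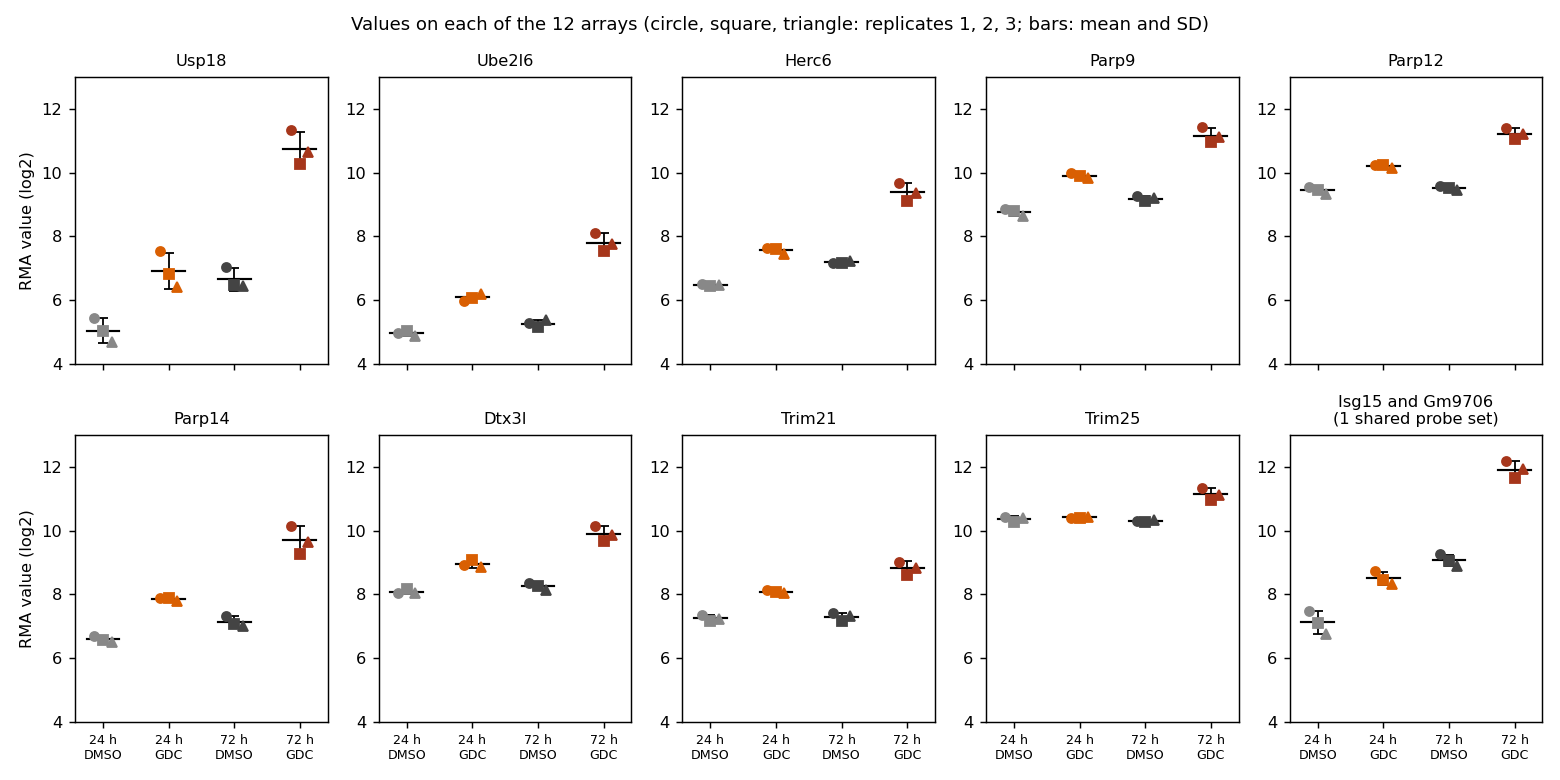
Deposited log2 values (vertical axis) of 9 genes and of the probe set shared by Isg15 and Gm9706 on each of the 12 arrays, by group (horizontal axis); points are arrays, horizontal lines means and bars standard deviations of 3 arrays. In each panel the 3 arrays of 72h GDC-0623 lie above all other arrays.

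Usp18, the protease that removes ISG15, moved most. Its log2 values were 5.43, 5.03 and 4.67 in 24h DMSO and 7.53, 6.81 and 6.42 in 24h GDC-0623. At 72 h they were 7.05, 6.46 and 6.43 in DMSO and 11.33, 10.27 and 10.66 under GDC-0623. The groups did not overlap at either time, although replicate 1 was the highest array in every group. The log2 fold change was 1.88 ± 0.26 at 24 h (3.67-fold, adjusted p = 0.00129) and 4.11 ± 0.26 at 72 h (17.2-fold, adjusted p = 2.00e-05). In 24h DMSO the values lay close to the median of all probe sets, which was 4.63 to 4.69 on the 12 arrays, so the 24 h fold change may be understated.

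The conjugating enzyme Ube2l6 started from a similarly dim baseline. Its values were 4.97, 5.04 and 4.88 in 24h DMSO, and 5.97, 6.08 and 6.20 in 24h GDC-0623. By 72 h they stood at 5.29, 5.14 and 5.36 in DMSO and at 8.12, 7.54 and 7.75 under the inhibitor. Treated arrays were higher than every DMSO array at both times. GDC-0623 changed Ube2l6 by a log2 fold change of 1.12 ± 0.08 at 24 h (2.17-fold, adjusted p = 3.52e-05) and 2.54 ± 0.14 at 72 h (5.82-fold, adjusted p = 1.51e-05).

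The ligase Herc6 gave 6.52, 6.44 and 6.48 in 24h DMSO against 7.63, 7.61 and 7.45 in 24h GDC-0623. After 72 h the values were 7.16, 7.18 and 7.23 in DMSO and 9.67, 9.11 and 9.37 under GDC-0623. The groups were separate at both times, with log2 fold changes of 1.08 ± 0.07 (adjusted p = 2.50e-05) and 2.19 ± 0.13 (adjusted p = 1.88e-05). Herc6 had 3 further probe sets, each called higher at both times, with log2 fold changes of 0.68 to 0.95 at 24 h and 1.40 to 2.04 at 72 h.

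The probe set assigned to both Isg15 and Gm9706 was also higher under GDC-0623 at both times. Its values were 7.48, 7.11 and 6.77 in 24h DMSO, 8.73, 8.46 and 8.33 in 24h GDC-0623, 9.26, 9.04 and 8.89 in 72h DMSO, and 12.19, 11.64 and 11.92 in 72h GDC-0623. Here the untreated cultures at 72 h were higher than the treated ones at 24 h, unlike in the group means of Usp18, Ube2l6 and Herc6. The log2 fold change was 1.39 ± 0.17 at 24 h (adjusted p = 0.000570) and 2.85 ± 0.15 at 72 h (7.23-fold, adjusted p = 1.10e-05). A probe set assigned to Gm9706 alone changed by 0.09 ± 0.09 at 24 h (adjusted p = 0.588) and by 1.74 ± 0.15 at 72 h (adjusted p = 0.000119). Both probe sets are of types that can bind transcripts of more than 1 gene, so the shares of Isg15 and Gm9706 in either signal cannot be told apart.

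Uba7, the activating enzyme that begins the ISG15 cascade, did not pass the test at either time. Its values were 6.05, 5.86 and 6.08 in 24h DMSO and 6.04, 5.96 and 5.96 in 24h GDC-0623. At 72 h they were 5.90, 5.82 and 5.81 in DMSO and 6.51, 6.02 and 6.11 under GDC-0623. The 72 h groups did not overlap, with treated arrays higher, as in 21.3% of all genes. Replicate 1 under GDC-0623 lay apart from the other treated arrays. The log2 fold change was -0.01 at 24 h (95% confidence interval -0.19 to 0.17, adjusted p = 0.953) and 0.37 at 72 h (0.09 to 0.65, adjusted p = 0.0668). Ube2l3, the closest relative of Ube2l6, had only probe sets assigned to several genes and gave no value.

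Among 10 measured enzymes, paralogs and modifiers of ubiquitin-like conjugation other than the members, 2 were called higher and 0 lower at 24 h. At 72 h, 0 were called higher and 3 lower. Of all genes, 13.3% were called higher and 8.23% lower at 24 h, and 13.8% and 12.4% at 72 h. The HERC ligases did not move as a family. Herc3 had a log2 fold change of 1.16 ± 0.15 at 24 h (adjusted p = 0.000926) but of only 0.26 ± 0.09 at 72 h (adjusted p = 0.0601), and this difference between times was itself called (-0.90 ± 0.19, adjusted p = 0.0260), though not after background subtraction (adjusted p = 0.0632). Herc2 was higher at 24 h by 0.35 ± 0.07 (adjusted p = 0.0103), and Herc4 was lower at 72 h by a log2 fold change of -0.26 ± 0.08 (adjusted p = 0.0421), a call lost after the shift by hybridization controls (adjusted p = 0.111). Sumo3, another ubiquitin-like modifier, fell at 72 h (-0.40 ± 0.08, adjusted p = 0.00738). The ubiquitin-specific proteases gave little parallel to Usp18. Of 31 others, 2 were called higher and 4 lower at 24 h, and 3 higher and 7 lower at 72 h, beside 8.23% and 12.4% of all genes called lower. Their log2 fold changes ran from -0.53 to 0.72 at 72 h. Usp25 was the highest of those with a mean level of at least 6 (0.67 ± 0.11, adjusted p = 0.00232), and Usp10 the lowest (-0.53 ± 0.11, adjusted p = 0.00911).

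The direction of the protease calls at 24 h depended on the scaling of the arrays: with each array shifted by its hybridization control probe sets, 5 were called higher and 0 lower.

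**Figure D2:**
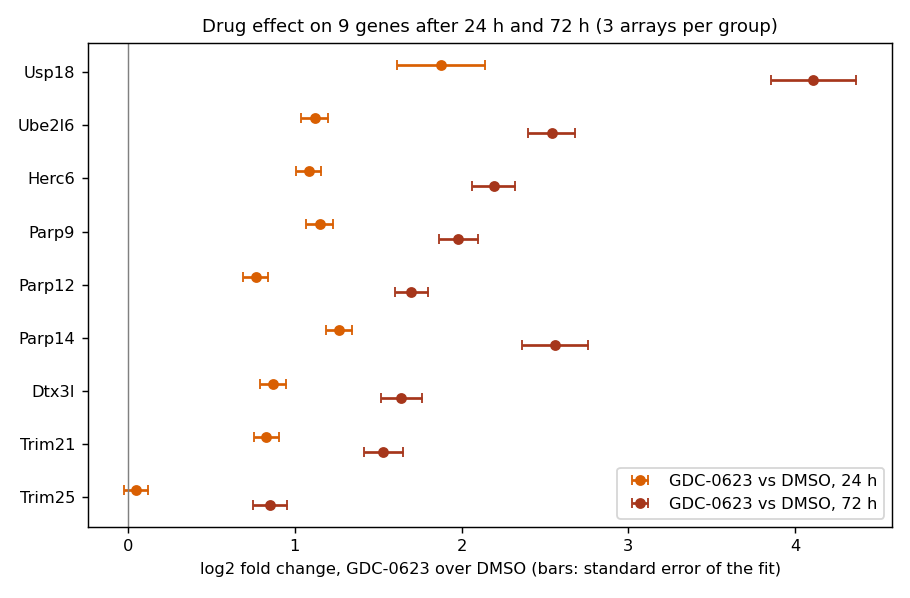
Log2 fold change of GDC-0623 over DMSO (horizontal axis) for 9 genes (vertical axis) after 24 h and 72 h, with the standard error of the fit, 3 arrays per group. Trim25 lies at 0.05 at 24 h, while the other 8 genes lie between 0.77 and 1.88, and all 9 are further to the right at 72 h.

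Parp9, Dtx3l and Parp14 are neighbours on chromosome 16 and rose together. Parp9 is thought to lack ADP-ribosyltransferase activity on its own and works with the ligase DTX3L. PARP14 is a mono-ADP-ribosyltransferase with macrodomains. In the reference table (GRCm38.p6) Parp14 lies at chr16:35831892-35871518, Dtx3l at chr16:35926515-35939027 and Parp9 at chr16:35938470-35972621, the last pair overlapping by 558 bases. Where each probe set falls within these genes was not analysed here.

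Parp9 values were 8.85, 8.79 and 8.64 in 24h DMSO, 10, 9.90 and 9.83 in 24h GDC-0623, 9.26, 9.10 and 9.20 in 72h DMSO, and 11.42, 10.97 and 11.11 in 72h GDC-0623. Its partner Dtx3l gave 8.05, 8.16 and 8.04 in 24h DMSO, 8.92, 9.08 and 8.86 in 24h GDC-0623, 8.36, 8.26 and 8.14 in 72h DMSO, and 10.15, 9.68 and 9.85 in 72h GDC-0623. For both genes the treated arrays were above all DMSO arrays of the same time. Log2 fold changes were 1.15 ± 0.08 and 1.98 ± 0.12 for Parp9 at 24 h and 72 h (adjusted p = 3.04e-05 and 1.88e-05). For Dtx3l they were 0.87 ± 0.08 and 1.64 ± 0.12 (adjusted p = 0.000124 and 4.88e-05), and a second Dtx3l probe set gave 0.86 and 2.01.

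Parp14 had values of 6.70, 6.57 and 6.49 in 24h DMSO, 7.89, 7.87 and 7.80 in 24h GDC-0623, 7.33, 7.06 and 7.01 in 72h DMSO, and 10.16, 9.28 and 9.64 in 72h GDC-0623. The spread among the last 3 arrays was wide, but they remained above all others. The Parp14 log2 fold change was 1.27 ± 0.08 at 24 h (2.41-fold, adjusted p = 1.34e-05) and 2.56 ± 0.20 at 72 h (5.90-fold, adjusted p = 5.39e-05). A dim second probe set of Parp14, with all values between 3.05 and 4.32, was called only at 72 h (0.72, adjusted p = 0.0129).

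The genes on either side of this cluster did not rise. Kpna1, a nuclear import factor beyond Parp9, had log2 fold changes of 0.02 (95% confidence interval -0.13 to 0.17) and -0.09 (-0.26 to 0.08). Hspbap1, beyond Parp14, was not called at 24 h (-0.14, adjusted p = 0.226) and was lower at 72 h (-0.34 ± 0.08, adjusted p = 0.0156). Next to Isg15, Agrn, which encodes a matrix proteoglycan, changed by 0.13 at 24 h (adjusted p = 0.236) and rose by 1.00 ± 0.17 at 72 h (adjusted p = 0.00317). Ppm1k, next to Herc6, rose at 72 h as well (0.45 ± 0.08, adjusted p = 0.00372), whereas Kdm7a, next to Parp12, was lower (-0.85 ± 0.08, adjusted p = 0.000186). The other nearest measured neighbours outside the set were not called at 72 h. Of these, Coil, next to Trim25, was lower at 24 h (-0.26 ± 0.07, adjusted p = 0.0324).

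**Figure D3:**
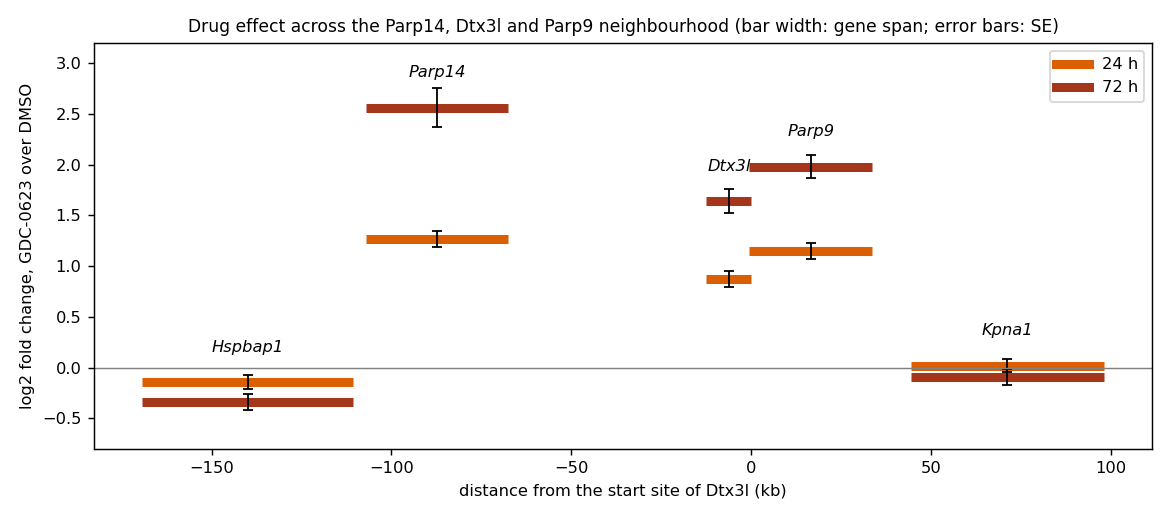
Log2 fold change of GDC-0623 over DMSO (vertical axis, error bars show the standard error) of Parp14, Dtx3l, Parp9 and the nearest measured gene on each side, drawn as bars across each gene's span by distance from the start of Dtx3l in kb (horizontal axis). The 3 members lie between 0.87 and 1.27 at 24 h and between 1.64 and 2.56 at 72 h, and the flanking genes Hspbap1 and Kpna1 lie between -0.34 and 0.02.

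Parp12, a mono-ADP-ribosyltransferase with zinc fingers that restricts several viruses, lies on chromosome 6 (chr6:39086412-39118349). It was among the steadiest members in untreated cells. Its values were 9.55, 9.45 and 9.34 in 24h DMSO and 9.58, 9.53 and 9.47 in 72h DMSO. Under GDC-0623 they were 10.23, 10.25 and 10.16 at 24 h and 11.41, 11.06 and 11.21 at 72 h. DMSO arrays of both times overlapped one another, and all lay below the treated arrays. GDC-0623 gave a log2 fold change of 0.77 ± 0.08 at 24 h (1.70-fold, adjusted p = 0.000184) and 1.70 ± 0.10 at 72 h (3.25-fold, adjusted p = 1.85e-05).

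Of 12 other measured members of the PARP family, 5 were called higher and 0 lower at 24 h, and 4 higher and 2 lower at 72 h. Their medians were 0.07 at both times. The shares over all genes were 13.3% higher and 8.23% lower at 24 h, and 13.8% and 12.4% at 72 h. Parp11, a mono-ADP-ribosyltransferase, came closest to the set, with log2 fold changes of 0.57 ± 0.07 and 1.71 ± 0.20 (adjusted p = 0.000846 and 0.000465). Parp3 rose by 0.45 and 1.01 (adjusted p = 0.00284 and 0.00136) and Parp4 by 0.71 and 0.66 (adjusted p = 0.000435 and 0.00159). The DNA repair enzymes Parp1 and Parp2 were called lower at 72 h. Parp1 gave -0.20 at 24 h (adjusted p = 0.119) and -0.37 at 72 h (adjusted p = 0.0288), and Parp2 gave -0.20 (adjusted p = 0.0703) and -0.44 (adjusted p = 0.0162). The 72 h call of Parp1 was lost after the shift by hybridization controls (adjusted p = 0.0509) and after background subtraction (adjusted p = 0.0552). Zc3hav1 rose slightly at 24 h (0.28 ± 0.07, adjusted p = 0.0223) and was not called at 72 h (0.29 ± 0.09, adjusted p = 0.0573). Parp10 gave no value, since its only probe set was also assigned to Plec.

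Of 9 measured relatives of DTX3L and enzymes that remove ADP-ribose, 2 were called higher and 0 lower at 24 h, and 2 higher and 1 lower at 72 h. Their medians were 0.15 and 0.04. Over all genes, 13.3% and 13.8% were called higher at these times, and 8.23% and 12.4% lower. Dtx4 rose at 24 h by 0.92 ± 0.08 (adjusted p = 7.47e-05), and its effect was smaller at 72 h (0.29 ± 0.08, adjusted p = 0.0398; difference -0.63 ± 0.11, adjusted p = 0.00773). Dtx2 was higher by 0.37 and 0.36 (adjusted p = 0.00384 and 0.0248), and Oard1, which removes ADP-ribose from proteins, was lower at 72 h (-0.44 ± 0.13, adjusted p = 0.0395). At 72 h the call of Dtx4 was lost after the shift by hybridization controls (adjusted p = 0.0798) and that of Oard1 after background subtraction (adjusted p = 0.0955).

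Trim21 lies on chromosome 7 (chr7:102557920-102565482) and resembled Parp12 in its timing. Its values were 7.36, 7.17 and 7.24 in 24h DMSO and 7.42, 7.16 and 7.31 in 72h DMSO, and both sets of arrays overlapped. Under GDC-0623 they were 8.14, 8.08 and 8.04 at 24 h and 9.03, 8.62 and 8.83 at 72 h. Trim21 thus had a log2 fold change of 0.83 ± 0.07 at 24 h (1.78-fold, adjusted p = 0.000111) and 1.53 ± 0.12 at 72 h (2.89-fold, adjusted p = 5.39e-05). A second probe set of Trim21 gave 0.62 and 1.31.

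Trim25 (chr11:88999403-89020294) differed from the other members at 24 h. Its values were 10.42, 10.27 and 10.40 in 24h DMSO and 10.40, 10.40 and 10.44 in 24h GDC-0623. They were 10.29, 10.27 and 10.32 in 72h DMSO and 11.35, 10.96 and 11.13 in 72h GDC-0623. At 24 h the treated and DMSO arrays overlapped, whereas at 72 h all treated arrays lay above all DMSO arrays. For Trim25 the log2 fold change was 0.05 ± 0.07 at 24 h (95% confidence interval -0.11 to 0.21, adjusted p = 0.693) and 0.85 ± 0.10 at 72 h (1.81-fold, adjusted p = 0.000590). Its other probe sets gave 0.09 (adjusted p = 0.391) and -0.26 (adjusted p = 0.0551) at 24 h, and 0.87 and 0.66 at 72 h. Both were called at 72 h.

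Among 40 other TRIM genes, 16 were called higher and 0 lower at 24 h, and 15 higher and 3 lower at 72 h, beside 13.3% and 13.8% of all genes called higher. Their medians were 0.12 and 0.14. The strongest rises were in the Trim12, Trim30 and Trim34 group, relatives that lie close together in the mouse genome. Trim30a gave log2 fold changes of 2.04 ± 0.13 and 3.57 ± 0.23 (adjusted p = 1.59e-05 and 2.16e-05), and Trim30d gave 2.08 ± 0.17 and 2.77 ± 0.18 (adjusted p = 6.08e-05 and 2.87e-05). Trim12c rose by 1.57 and 2.62 (adjusted p = 0.000125 and 2.00e-05) and Trim34a by 1.39 and 2.60 (adjusted p = 7.11e-05 and 2.35e-05). These paralogs are similar in sequence, and their probe sets may share signal. Trim28, a corepressor, gave -0.08 and -0.06 and was not called at either time (adjusted p = 0.505 and 0.723). With repeated quantile normalisation the 24 h split of the TRIM genes was 12 higher and 2 lower.

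**Figure D4:**
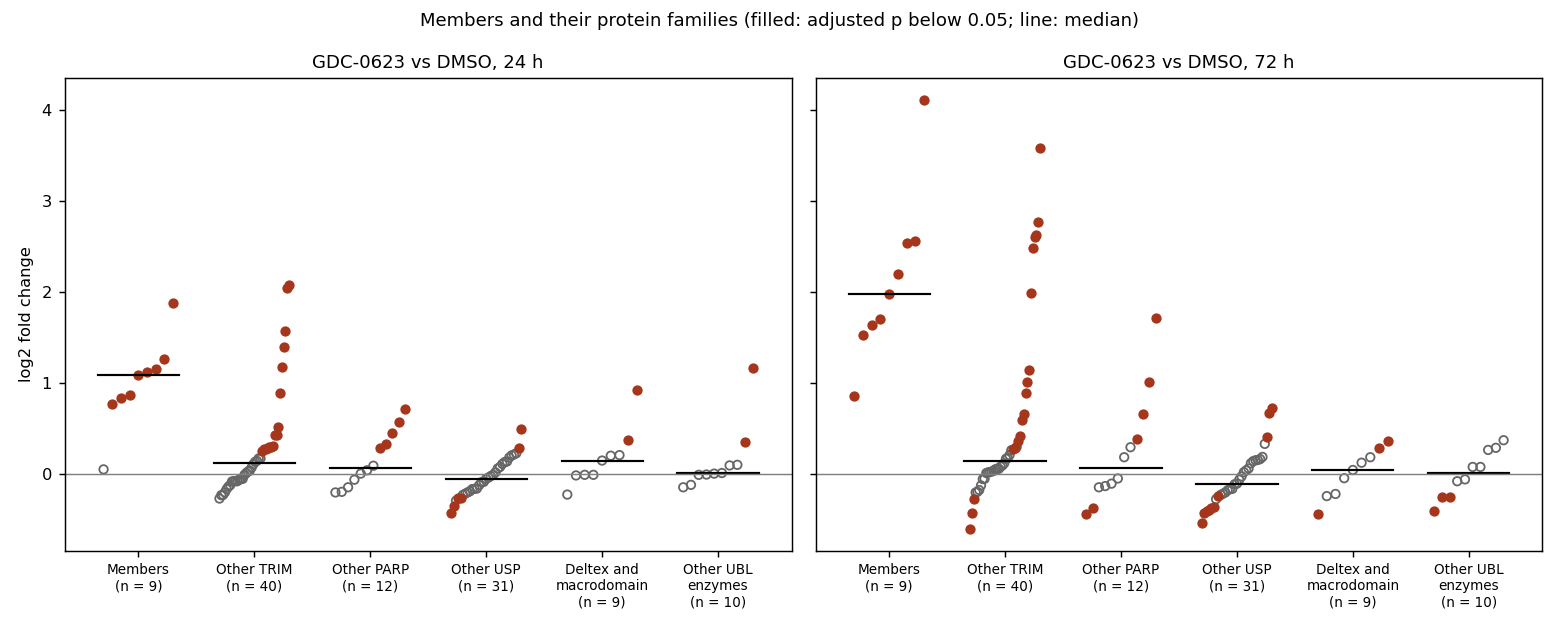
Log2 fold change of GDC-0623 over DMSO (vertical axis) at 24 h and 72 h for the 9 members and for 5 lists of related genes (horizontal axis); each point is a gene, filled where the adjusted p was below 0.05, and lines are medians. The members' medians are 1.08 and 1.98, and those of the 5 lists lie between -0.11 and 0.15.

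The effect of the drug grew with time for every measured member. The difference between the 72 h and 24 h effects, tested on all 12 arrays, was called higher for 9 of 9 members, against 1.62% of all genes. Its median was 0.93 on the log2 scale, against -0.01 over all genes. The largest differences were those of Usp18 (2.23 ± 0.42, adjusted p = 0.0128) and Ube2l6 (1.42 ± 0.17, adjusted p = 0.000716). The smallest were those of Trim21 (0.70 ± 0.14, adjusted p = 0.0201) and Dtx3l (0.77 ± 0.15, adjusted p = 0.0170). These calls for Trim21 and Dtx3l were not kept when each array was shifted by its hybridization controls (0.56 and 0.63, adjusted p = 0.0938 and 0.0862). Over all alternatives the adjusted p of the Trim21 difference ran from 0.00437 to 0.0938, and that of Dtx3l from 0.00401 to 0.0862.

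On the log2 scale, the 24 h effect amounted to 44.1% to 58.1% of the 72 h effect in 8 members, and to 5.86% in Trim25. Ube2l6 had the lowest share of these 8 and Parp9 the highest.

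Part of the set also rose with culture time alone. From 24 h to 72 h in DMSO, 5 of the 9 members were called higher, against 8.41% of all genes. These were Usp18 (1.60 ± 0.21, adjusted p = 0.00318), Herc6 (0.71 ± 0.06, adjusted p = 0.000399), Parp14 (0.55 ± 0.10, adjusted p = 0.0107), Parp9 (0.43 ± 0.08, adjusted p = 0.0113) and Ube2l6 (0.30 ± 0.08, adjusted p = 0.0458). The probe set of Isg15 and Gm9706 rose most (1.94 ± 0.17, 3.85-fold, adjusted p = 0.000487). Parp12, Dtx3l, Trim21 and Trim25 were not called, with log2 changes of 0.08, 0.17, 0.04 and -0.07. For Trim25 the 95% confidence interval was -0.22 to 0.08, and for Trim21 it was -0.16 to 0.24. The call of Ube2l6 was lost under several alternatives (adjusted p from 0.0168 to 0.157), among them the omission of any single DMSO array but replicate 2 of 72 h. A fit over all 12 arrays called 3 members here and lost Parp14 as well (adjusted p = 0.0522).

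From 24 h to 72 h under GDC-0623, 9 of 9 members were called higher, against 5.79% of all genes, with a median log2 change of 1.26. Usp18 changed most (3.83 ± 0.30, 14.3-fold, adjusted p = 0.000144), and Trim25 least (0.73 ± 0.10, adjusted p = 0.00346). Parp12 rose by 1.01 ± 0.10 (adjusted p = 0.000459) and Trim21 by 0.74 ± 0.11 (adjusted p = 0.00404), although neither was called in DMSO.

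The components that transmit the interferon signal were measured on the same arrays. Of 14 genes of the receptor and ISGF3 pathway, 7 were called higher and 1 lower at 24 h, and 10 higher and 0 lower at 72 h. Their medians were 0.32 and 0.52. Beside these counts, 13.3% and 13.8% of all genes were called higher, and 8.23% and 12.4% lower. Stat2 rose by 1.28 ± 0.10 and 3.32 ± 0.25 (adjusted p = 4.75e-05 and 4.87e-05) and Irf9 by 1.30 ± 0.09 and 2.26 ± 0.13 (adjusted p = 2.16e-05 and 1.88e-05). Irf7, a transcription factor of type I interferon genes, rose by 1.22 ± 0.10 and 4.33 ± 0.27 (adjusted p = 5.97e-05 and 2.12e-05), and Irf1 by 0.60 and 0.92. Ifnb1, which encodes interferon beta, stayed below the median of all probe sets on every array, between 3.65 and 4.16. Its log2 fold changes were 0.07 and 0.14 (95% confidence intervals -0.10 to 0.24 and -0.04 to 0.31). Socs1, a feedback inhibitor of the pathway, was the gene called lower at 24 h (-0.47 ± 0.07, adjusted p = 0.00136), and it was higher at 72 h (0.40 ± 0.08, adjusted p = 0.00831). Under the shift by hybridization controls the 24 h call of Socs1 was lost and the split was 10 higher and 0 lower.

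Most genes on a list of RNA sensors and their partners, RIG-I among them, were already raised at 24 h, when Trim25 was not called. Of 6 genes, among them Zc3hav1, 5 were called higher and 1 lower at 24 h, and 4 higher and 0 lower at 72 h. All genes together gave 13.3% higher and 8.23% lower at 24 h, and 13.8% and 12.4% at 72 h. Ddx58, the gene of RIG-I, rose by 1.00 ± 0.08 and 2.05 ± 0.12 (adjusted p = 6.86e-05 and 1.60e-05), and the related sensor Ifih1 by 1.28 ± 0.10 and 2.47 ± 0.18 (adjusted p = 4.65e-05 and 4.44e-05). Dhx58 rose by 0.95 and 3.23 (adjusted p = 0.000161 and 2.05e-05). Rnf135, a ubiquitin ligase for RIG-I, rose by 0.64 and 1.02 (adjusted p = 0.000419 and 0.000783). Mavs, the adaptor of both sensors, was lower at 24 h (-0.26 ± 0.07, adjusted p = 0.0230) but not after the shift by hybridization controls, and it was not called at 72 h (-0.19, adjusted p = 0.178).

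Replicate 1 of 72h GDC-0623 was the highest of its group in 9 of 9 members and replicate 2 the lowest in 9 of 9. The mean over the members was 10.29 on replicate 1, 9.72 on replicate 2 and 9.95 on replicate 3. In the other groups replicate 1 also had the highest mean over the members, but by less: it was the highest array for 7 members in 24h DMSO, for 5 in 24h GDC-0623 and for 6 in 72h DMSO. Without replicate 1 of this group, the 72 h log2 fold changes ran from 0.75 to 3.82 with a median of 1.85, and the highest adjusted p was 0.000988.

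**Figure D5:**
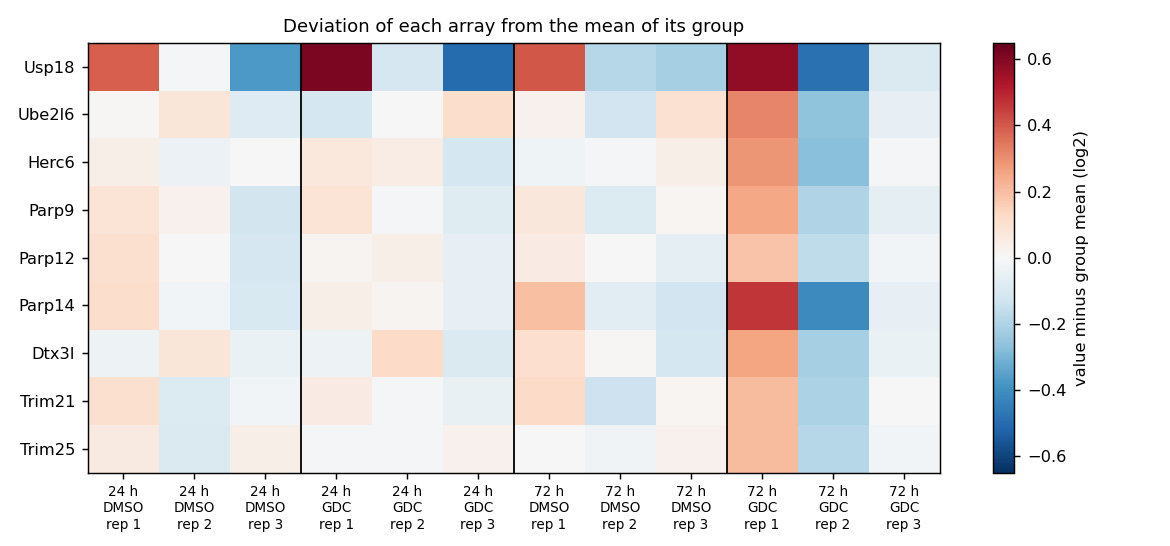
Deviation of each array (horizontal axis) from the mean of its group in log2 units (colour) for 9 genes (vertical axis). In 72h GDC-0623 replicate 1 is above and replicate 2 below the group mean for every gene, and the widest deviations in the other groups are those of Usp18.

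Over the 12 arrays, each member's values followed the mean of the other members, with a Pearson r of 0.929 for Trim25 and of 0.966 to 0.998 for the other 8. These correlations mainly reflect the 4 groups that the arrays share. Among 9475 other genes with a group mean of at least 6, the closest to the mean profile of the set were Ifi35, Ifih1, Pdzd2, Samd9l and Lgals9, with r between 0.995 and 0.998. Ifi35 encodes an interferon-induced protein, and its log2 fold changes were 0.80 ± 0.07 and 1.66 ± 0.11 (adjusted p = 8.19e-05 and 2.62e-05). Samd9l, an interferon-induced antiviral factor, gave 1.25 and 2.58, Pdzd2 gave 0.95 and 2.31, and Lgals9, the gene of galectin-9, gave 1.73 and 3.59.

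Markers of leukocytes, endothelium and epithelium gave little signal, and mesenchymal markers gave more. The mean log2 level of 9 measured leukocyte markers was between 4.30 and 4.58 on the 12 arrays, with 0 called higher and 1 called lower by GDC-0623 at each time. From 24 h to 72 h in DMSO, 2 of them were called higher and 1 lower, with changes from -0.23 to 0.92. Ptprc, which all leukocytes express, never exceeded 3.10. It was picked after its values were seen and lay below that mean, so other markers of the list lay higher. Mean levels of 4 endothelial markers were 3.74 to 4.02, with 0 called at either time. The 9 epithelial and colon markers had mean levels of 3.90 to 4.08, with 0 called at 24 h and 1 called lower at 72 h. Cdh1 and Krt18, picked after their values were seen, lay below that mean, between 2.51 and 2.96. By themselves they lend no support to the carcinoma origin of the line. Vim, a mesenchymal filament also picked after its values were seen, was between 13.54 and 13.80 on all arrays, above the mean of its list. The 6 mesenchymal markers had mean levels of 8.02 to 8.46 in DMSO and 9.13 to 9.90 under GDC-0623. Of these 6, 3 were called higher at 24 h and 4 at 72 h, beside 13.3% and 13.8% of all genes. Their part in the results was not tested.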

How the data were processed

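RNA of MC38 cells (4 groups, 12 samples) was hybridised by the authors to Affymetrix mouse genome arrays. The deposited values are log2 expression values made by the authors with RMA (background correction, quantile normalisation, probe summary), the tool the submitters' notes list. The RMA version was not given in the sources used here. The quantile normalisation removes shifts shared by most genes, and RMA values carry no detection call. The number of arrays limits the precision. Of 45101 probe sets, 64 controls were left out, and 34945 of the 45037 tested had 1 symbol. The annotation dates from the array's platform table and was updated by gene identifier (34741 matched), and Ddx58 stands for Rigi.

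Groups were compared with limma 3.58.1 in R 4.3.3 (lmFit, eBayes, two-sided), with Benjamini-Hochberg adjustment over all 45037 probe sets, and called below an adjusted p of 0.05, using the 6 arrays of a comparison or all 12 for the difference of effects. Errors are standard errors of the fit. The fit was tested on simulated data. The members and gene lists were chosen with earlier results of these data known. Up to 4 called genes of each list, with the largest 72 h change and a mean of at least 6, were named. So were a few fixed genes and the 5 closest profiles. Of the nearest measured neighbours, those called and those flanking Parp14 and Parp9 were named. Socs1, Mavs and single cell type markers were named after their values were seen. Alternatives were the replicate number as a block, 1 fit over 12 arrays, repeated quantile normalisation, a filter on dim probe sets (3 or more arrays at 5 or higher), a shift by 18 hybridization control probe sets, background subtraction (5th percentile, offset 16), another prior, array weights, the mean of a gene's probe sets and leaving out each array. Figures were drawn with matplotlib 3.10.9.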

Additional observations from a re-analysis of the deposited data

Results flagged for a closer look

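The effect of GDC-0623 differed between 72 h and 24 h for all measured members, by the test of that difference on 12 arrays (limma, adjusted p below 0.05). On the log2 scale, the 72 h effect exceeded the 24 h effect by 2.23 for Usp18, by 1.42 for Ube2l6 and by 1.11 for Herc6. The excess was 0.83 for Parp9, 0.93 for Parp12, 1.29 for Parp14 and 0.77 for Dtx3l. It was 0.70 for Trim21 and 0.80 for Trim25. The probe set shared by Isg15 and Gm9706 gave 1.47 (adjusted p = 0.00627). For Herc6, 2 of its 3 other probe sets did not pass this test (0.59 and 0.71, adjusted p = 0.205 and 0.0621), and neither did the dim probe set of Parp14 (0.74, adjusted p = 0.132).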

How the results depend on the processing

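Across the alternatives, 773 of 795 single-gene values kept their direction and their side of the threshold, 18 fell short of it and 4 changed sign. All calls of the drug effect at 24 h and at 72 h were kept, 8 and 9 members respectively, in every alternative. For the difference of effects, 9 members were called in all alternatives run except the shift by hybridization controls (7) and the omission of single arrays (7 to 9), where Dtx3l or Trim21 fell short. Omitting replicate 3 of 24h GDC-0623 lost both. For the DMSO cultures the count of 5 became 3 with 1 fit over all 12 arrays and 4 to 5 when single arrays were omitted, and 4 with background subtraction or the shift by hybridization controls. Ube2l6 had adjusted p-values of 0.0168 to 0.157 over the alternatives. The sign changed for Trim25 at 24 h with the mean of its probe sets (-0.039), and for Trim21 over time in DMSO with repeated quantile normalisation (-0.0021) and when single arrays were omitted (-0.022 to 0.108, negative without replicate 2 of 24h DMSO or replicate 1 of 72h DMSO). None of these values was called. The cause was not tested.

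The correlations of same-numbered deviations were low but all positive, 0.01 to 0.29, and replicate 1 had the highest mean over the members in all 4 groups. A weak pairing by replicate number therefore cannot be told apart from none. With the replicate number as a block, 8, 9, 9, 4 and 9 members were called for the 24 h effect, the 72 h effect, their difference, time in DMSO and time under GDC-0623. The shift by hybridization controls moved the median log2 fold change of all genes at 24 h from -0.03 to 0.12, and the genes called from 2421 higher and 1497 lower to 3407 and 416. Genes near the median of all probe sets, such as Usp18 and Ube2l6 in 24h DMSO, have fold changes that depend on the background. The setting named background subtraction also added an offset to the values. With it Ube2l6 gave 0.93 at 24 h, against 1.12 in the main fit. An added offset makes the fold changes of dim genes smaller, so this value does not show the effect of subtraction alone. The same limit applies to the calls described as lost after background subtraction.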
